A study of Saccharomyces cerevisiae with 24 samples.

Results

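HXK1 (YFR053C, chromosome VI) and GLK1 (YCL040W, chromosome III) are yeast genes for hexokinase 1 and glucokinase. Both were followed in V5, a wine strain of Saccharomyces cerevisiae, and in V5.TM6*P, a strain made from it. They are 2 of the 6330 probes on the array, with 1 spot for HXK1 and 2 for GLK1, and were chosen by gene name with earlier results of these data known. Their probes were named with the help of the strain difference in the authors' table. V5 is MATa with ura3 and gal mutations. V5.TM6*P lacks the hexose transporter genes HXT1 to HXT7 and takes up glucose through Tm6*, a transporter joined from parts of Hxt1 and Hxt7. URA3 was put back into both, so neither strain needs uracil. Each was grown in a bioreactor at pH 5 and 30°C in minimal medium with 5% glucose at the start. RNA was taken at 3 stages, with 2 samples per strain and stage. The high stage was sampled at 38.4 and 35 g/L of residual glucose in V5 and at 36.5 and 34.8 g/L in V5.TM6*P. The middle stage was at 25.5 and 24.4 g/L in V5 and at 26.3 and 25.1 g/L in V5.TM6*P, and the low stage at 10.5 and 7.4 g/L in V5, against 5.6 and 13.5 g/L in V5.TM6*P. Each of the 12 RNA samples was hybridized to 2 filter arrays as radioactively labelled cDNA. By the study's account the 6 samples of a strain came from 2 independent fermentations, which the labels do not tell apart. The p-values therefore measure the spread between these samples and not between separate cultures.

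Glucose that enters a yeast cell must be phosphorylated before glycolysis, the pentose phosphate pathway or storage carbohydrate synthesis can use it. Yeast has a trio of enzymes for this step, the hexokinases Hxk1 and Hxk2 and the glucokinase Glk1. Hxk1 and Hxk2 also phosphorylate fructose and mannose, whereas Glk1 acts on aldoses such as glucose and mannose. HXK2 is the gene used in abundant glucose and its protein also takes part in glucose repression, while HXK1 and GLK1 are known as glucose-repressed genes. The repressor Mig1 binds GC-rich sites in the promoters of such genes, together with the corepressor Tup1-Cyc8. EMI2, a glucokinase-like gene, is the paralog of GLK1. The probe of HXK2 could not be named and is not analysed here.

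The study lists putative Mig1 sites of these genes, shown because the results compare genes that carry such a site. In these sites, read 5′ to 3′, capitals mark the first 6 bases, the C-rich part of the Mig1 motif, and lower case the bases after it.
HXK1 site A: CCCCGGatttt
HXK1 site B: CCCCACtatt
HXK1 site C: CCCCGGaaattttatta
GLK1 site: CCCCGCattataa
EMI2 site: CCCCGCgtttttt
HXK1 thus had 3 listed sites, GLK1 1 and EMI2 1. The C-rich part was shared by HXK1 sites A and C and differed at site B, and GLK1 and EMI2 had the same one. Binding was not measured in these samples.

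A level is given as the log2 of the background-subtracted spot intensity over the median probe of the same array, so that 0 is the median probe and 1 unit is a 2-fold difference. Levels follow the cellular mRNA only relative to that median, and the level of one probe is not set against that of another. Array medians of net intensity were 11.4 to 22.9 over a median background of 12.1 to 31.5. The HXK1 spot was 3.14 to 44.6 times its local background in V5 and 32.0 to 80.9 times in V5.TM6*P. The GLK1 spots were 1.64 to 8.38 times background in V5 and 4.61 to 15.0 times in V5.TM6*P, so the lowest V5 values of GLK1 lay closest to background. No spot of either gene was under the floor or marked empty by the imaging software. The spots are PCR products of whole open reading frames, and binding of HXK2 transcript to the HXK1 spot or of EMI2 transcript to the GLK1 spots was not tested. Of the 24 arrays, 3 carried a different array code in their image names, all with V5.TM6*P RNA from 36.5 and 34.8 g/L. The sample titles carry the same code for all 24, and what a different code stands for is not stated. Chromosome X stood apart between the strains: over its 96 named probes, the median shift against named probes elsewhere was 0.08 to 0.58 in V5 and -0.47 to -0.25 in V5.TM6*P, with the lowest V5 value at 7.4 g/L. The same shift for chromosome VI, with HXK1, was -0.11 to 0.39 in V5 and -0.17 to 0.33 in V5.TM6*P. For chromosome III, with GLK1, it was -0.00478 to 0.15 in V5 and -0.23 to 0.06 in V5.TM6*P, below 0 in 5 of the 6 V5.TM6*P samples and 1 of the 6 V5 samples, and its part in the GLK1 difference was not tested.

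HXK1, hexokinase 1, had levels of 1.32, 2.75, 2.90, 3.32, 5.62 and 5.36 in V5 as glucose went from 38.4 to 7.4 g/L. In V5.TM6*P its levels were 6.96, 6.12, 6.36, 6.52, 6.55 and 6.18 from 36.5 to 5.6 g/L. The strains did not overlap, and the V5 samples spread over a 19.7-fold range against 1.79-fold in V5.TM6*P. In multiples of the array median, V5 went from 2.49 at 38.4 g/L to 49.2 at 10.5 g/L, whereas V5.TM6*P stayed between 69.5 and 124.

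GLK1, glucokinase, had levels of -0.32, 0.43, 1.04, 0.81, 2.55 and 2.25 in V5 over the same glucose values. In V5.TM6*P the levels were 3.07, 3.47, 2.60, 2.84, 3.62 and 2.99. Again the strains did not overlap, but the margin was only 0.05, between V5.TM6*P at 26.3 g/L and V5 at 10.5 g/L. The range over samples was 7.31-fold in V5 and 2.02-fold in V5.TM6*P. A range wider than that of GLK1 in V5 was seen for 10.2% of all probes.

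**Figure D1:**
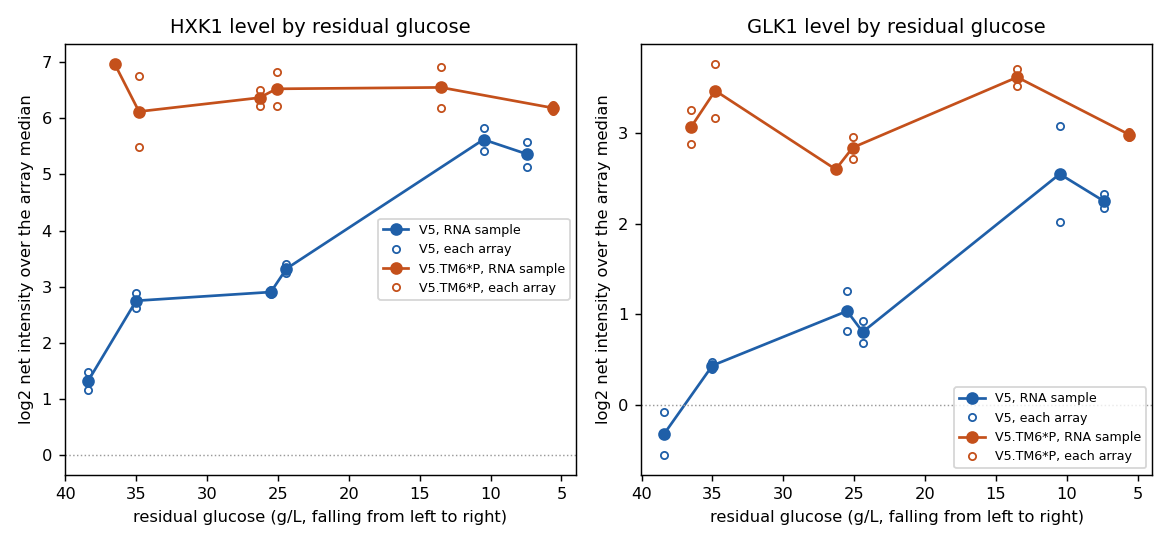
Levels of HXK1 (left) and GLK1 (right) as log2 net intensity over the array median against residual glucose in g/L, which falls from left to right. Filled points joined by lines are RNA samples, open points the 2 arrays behind each, and the dotted line is the median probe. HXK1 in V5 went from 1.32 to 5.62 while V5.TM6*P stayed between 6.12 and 6.96.

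Both genes were higher in V5.TM6*P than in V5 over all samples. HXK1 averaged 6.45 ± 0.30 (SD, n = 6) in V5.TM6*P and 3.55 ± 1.65 (SD, n = 6) in V5, a 7.49-fold difference. Its log2 difference was 2.90 (SE 0.62, limma, adjusted p = 0.00921). GLK1 averaged 3.10 ± 0.38 (SD, n = 6) against 1.13 ± 1.09 (SD, n = 6), a 3.92-fold difference. Its log2 difference was 1.97 (SE 0.43, limma, adjusted p = 0.0107). With normexp background correction and quantile normalization, which adds an offset of 50 to every spot before log2, the GLK1 difference was 1.05 (limma, adjusted p = 0.00386). Of all 6330 probes 12.2% passed this test and 6.79% were higher in V5.TM6*P. All V5.TM6*P samples were above all V5 samples for both genes, as they were for 4.83% of all probes. In the exact permutation test over 924 assignments of the samples, both genes gave p = 0.00216, two-sided, which is the smallest p this design allows. The probes had been named by matching the strain difference in the authors' table to the study's gene lists, so the strain difference is in part fixed by the naming, while the glucose slopes were not used.

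In V5, HXK1 rose as glucose fell. Its slope was -1.27 on the log2 scale per 10 g/L of glucose (SE 0.14, limma, adjusted p = 0.0195), a 2.41-fold increase for each 10 g/L consumed. HXK1 was the only probe with a V5 slope past the threshold, which makes 0.0158% of the probes tested, and 770 probes (12.2%) had an unadjusted p under 0.05. GLK1 ranked 3 among all probes by p, with a slope of -0.85 (SE 0.13, limma, adjusted p = 0.0568) that missed the threshold, and of -0.35 (adjusted p = 0.0667) with normexp and quantile normalization. EMI2 ranked 2 with a slope of -0.63 (SE 0.09, limma, adjusted p = 0.0568). In the exact permutation test over the 720 orders of the 6 V5 samples, p was 0.00417 for HXK1 and 0.00556 for GLK1, two-sided, and both were 0.0125 after Benjamini-Hochberg adjustment over the 9 exact tests run. With the 2 lowest glucose points of each strain left out, the HXK1 slope was -1.06 (limma, adjusted p = 0.920). The HXK1 call was also lost without V5 at 38.4 g/L (adjusted p = 0.103), 24.4 g/L (0.0588), 10.5 g/L (0.128) or 7.4 g/L (0.05003), where the slope was -1.37 to -1.15. Leaving out V5.TM6*P at 26.3, 25.1, 13.5 or 5.6 g/L moved the adjusted p to between 0.0521 and 0.0607 with the V5 slope at -1.27.

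The increase in V5 was not even over the glucose range. HXK1 went up 2.70-fold between 38.4 and 35 g/L, by 1.11-fold and 1.33-fold over the next intervals down to 24.4 g/L, and 4.92-fold between 24.4 and 10.5 g/L. GLK1 went up 1.69-fold between 38.4 and 35 g/L, 1.52-fold to 25.5 g/L, then to 0.852 of that value at 24.4 g/L, and 3.35-fold between 24.4 and 10.5 g/L. Between 10.5 and 7.4 g/L both were slightly lower, at 0.834 of the former value for HXK1 and 0.813 for GLK1. These steps join single RNA samples and were set only against the array error. With an SD between repeat arrays over both strains of 0.36 for HXK1 and 0.31 for GLK1, on the log2 scale, the steps from 38.4 to 35 g/L and from 24.4 to 10.5 g/L exceeded 2 SD for both genes, and the step from 10.5 to 7.4 g/L did not. For GLK1 the step from 38.4 to 35 g/L was 0.75, close to 2 SD by the V5 arrays alone (SD 0.37). It rests on V5 at 38.4 g/L, where the 2 GLK1 spots of 1 array differed by 1.38.

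In V5.TM6*P no slope on glucose was detected. It was 0.09 per 10 g/L for HXK1 (95% interval -0.24 to 0.42, limma, adjusted p = 0.968) and -0.02 for GLK1 (95% interval -0.31 to 0.28, limma, adjusted p = 0.992). These intervals leave out the V5 slopes of both genes. No probe passed the limma test of this slope, and 378 (5.97%) had an unadjusted p under 0.05. The exact permutation test gave p = 0.504 for HXK1 and p = 0.925 for GLK1, two-sided.

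The difference between the slopes of the strains was 1.36 per 10 g/L for HXK1 (SE 0.20) and 0.83 for GLK1 (SE 0.19). HXK1 had the smallest unadjusted p of all probes for this difference (4.5e-05), yet it missed the threshold after adjustment over all probes (limma, adjusted p = 0.213), as did GLK1 (adjusted p = 0.422). No probe passed this limma test, and 515 (8.14%) had an unadjusted p under 0.05. HXK1 passed with the authors' table (adjusted p = 0.0140), with a variance trend (0.00546) and with all 24 arrays, the RNA sample being a random block (0.000381), and GLK1 with the 24 arrays so fitted (0.0339). The 24 arrays are repeats of the 12 RNA samples and add no sample.

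**Figure D2:**
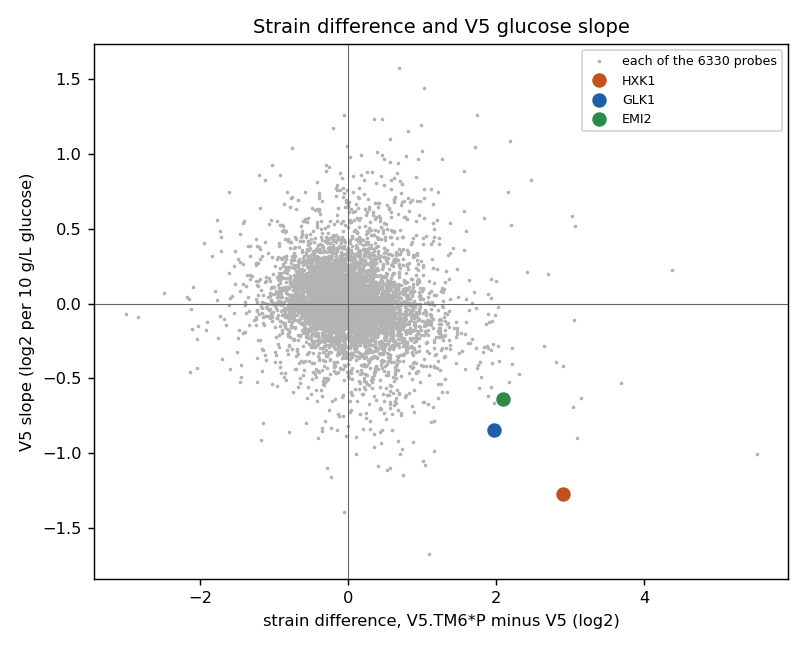
Strain difference (V5.TM6*P minus V5, log2, horizontal) against the V5 slope on glucose (log2 per 10 g/L, vertical) for every probe in grey, with HXK1, GLK1 and EMI2 in colour. A slope below 0 means a higher level at lower glucose. HXK1 lies at 2.90 and -1.27, GLK1 at 1.97 and -0.85 and EMI2 at 2.09 and -0.63.

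The gap between the strains was wide at high glucose and narrow at low glucose by the estimates, but the direct test of this change did not pass. Low minus high stage in V5.TM6*P less that in V5 was -3.63 for HXK1 (SE 0.67, limma, adjusted p = 0.333). For GLK1 it was -2.31 (SE 0.48, limma, adjusted p = 0.361). At the high stage HXK1 was 22.7-fold higher in V5.TM6*P, a log2 difference of 4.51 (SE 0.47, limma, adjusted p = 0.00482). GLK1 was 9.27-fold higher there, a log2 difference of 3.21 (SE 0.34, limma, adjusted p = 0.00482). Over the alternatives both calls held, with log2 differences of 3.73 to 5.22 for HXK1 and of 1.57, with normexp and quantile normalization, to 3.59 for GLK1. Of all probes 2.61% passed at this stage, 1.79% in the higher direction. The arrays with the different code in their image names were all in this comparison. Without them V5.TM6*P at 34.8 g/L is the only sample of that strain left at this stage. The log2 difference was then 4.71 for HXK1 and 3.11 for GLK1.

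At the middle stage HXK1 was 10.1-fold higher in V5.TM6*P (log2 difference 3.33, SE 0.47, limma, adjusted p = 0.0234), and 0.664% of all probes passed. GLK1 differed by 1.80 (SE 0.34, limma, adjusted p = 0.0571) and missed the threshold. The HXK1 call was lost on leaving out either middle-stage sample of either strain (limma, adjusted p = 0.0672 to 0.128) or V5.TM6*P at 13.5 or 5.6 g/L (0.0517 for each), with the log2 difference between 3.12 and 3.54. At the low stage neither gene passed. HXK1 differed by 0.88 (95% interval -0.20 to 1.95, limma, adjusted p = 0.447) and GLK1 by 0.90 (95% interval 0.13 to 1.67, adjusted p = 0.304), against 0.411% of all probes that passed.

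Within V5, HXK1 at the low stage was 11.0-fold its level at the high stage, a log2 difference of 3.46 (SE 0.47, limma, adjusted p = 0.0606). GLK1 was 5.08-fold, a log2 difference of 2.34 (SE 0.34, limma, adjusted p = 0.0621). Neither passed. No probe passed this limma test (0% of those tested), and 699 (11.0%) had an unadjusted p under 0.05. Both genes passed without V5 at 35 g/L, at log2 differences of 4.17 (limma, adjusted p = 0.0164) and 2.72 (0.0378). For both genes the 2 low-stage V5 samples were above the other 4, as they were for 10.7% of all probes. Within V5.TM6*P the low stage differed from the high stage by -0.17 for HXK1 and 0.03 for GLK1 (limma, adjusted p = 0.970 and 0.994; 0.0158% of all probes passed), and leaving out V5.TM6*P at 36.5 or 5.6 g/L turned the sign for HXK1 (0.25 and 0.01), as leaving out that at 36.5 or 13.5 g/L did for GLK1 (-0.17 and -0.28).

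By the estimates V5 at low glucose lay closer than V5 at high glucose to the V5.TM6*P level at high glucose, but below it. Neither gene passed this comparison, which does not show that the levels were equal. V5.TM6*P at 34.8 and 36.5 g/L was above V5 at 7.4 and 10.5 g/L by 1.05 for HXK1 (95% interval -0.02 to 2.12, limma, adjusted p = 0.362). For GLK1 the difference was 0.87 (95% interval 0.10 to 1.64, limma, adjusted p = 0.296). Of all probes 0.537% passed this comparison. In the order of the HXK1 levels, all 6 V5.TM6*P samples came first, then V5 at 10.5, 7.4, 24.4, 25.5, 35 and 38.4 g/L. Neighbours in this order differed by over 2 SD of the array error only between V5 at 7.4 and 24.4 g/L and between V5 at 35 and 38.4 g/L. For GLK1 V5 came in the same order except that 25.5 g/L was above 24.4 g/L, and the neighbours that differed beyond 2 SD were V5 at 7.4 and 25.5 g/L and again V5 at 35 and 38.4 g/L.

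In V5 HXK1 varied more over the samples than GLK1, with an SD of 1.65 against 1.09 on the log2 scale, whereas in V5.TM6*P the SDs were 0.30 and 0.38. The level of HXK1 minus that of GLK1 within the same sample was 1.64, 2.32, 1.87, 2.52, 3.07 and 3.11 in V5 from 38.4 to 7.4 g/L. In V5.TM6*P it was 3.89, 2.65, 3.76, 3.68, 2.93 and 3.20 from 36.5 to 5.6 g/L. Only how this quantity changes between samples can be read, since its size depends on both probes. It increased in V5 as glucose fell, with a slope of -0.42 per 10 g/L (exact permutation test over 720 orders, p = 0.0236, two-sided, 0.0354 after adjustment over the 9 exact tests). This p lost its call with the second GLK1 spot alone (0.0514) and without V5 at 38.4 g/L (0.10), 24.4 g/L (0.075), 10.5 g/L (0.0583) or 7.4 g/L (0.0833). In V5.TM6*P the slope was 0.11 (exact permutation test, p = 0.593). Over all samples the quantity was 0.93 higher in V5.TM6*P than in V5 (exact permutation test over 924 assignments, p = 0.0216, two-sided, 0.0354 after adjustment). The strain difference of HXK1 was thus the larger on the log2 scale. Both probes were named with the help of their strain differences, so this contrast is in part fixed by the naming and is no independent support. The lowest V5 values of GLK1 also lay closest to background.

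Paired by sample number, the strains differed for HXK1 by 5.64, 3.37, 3.46, 3.20, 0.93 and 0.82 on the log2 scale. For GLK1 the same differences were 3.39, 3.04, 1.57, 2.04, 1.07 and 0.73. The glucose values of these pairs were not equal, being 35 against 34.8 g/L for the closest and 10.5 against 13.5 g/L for the most distant, and no test was made on them. The values show the gap of both genes falling to about the same size in the last pairs.

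**Figure D3:**
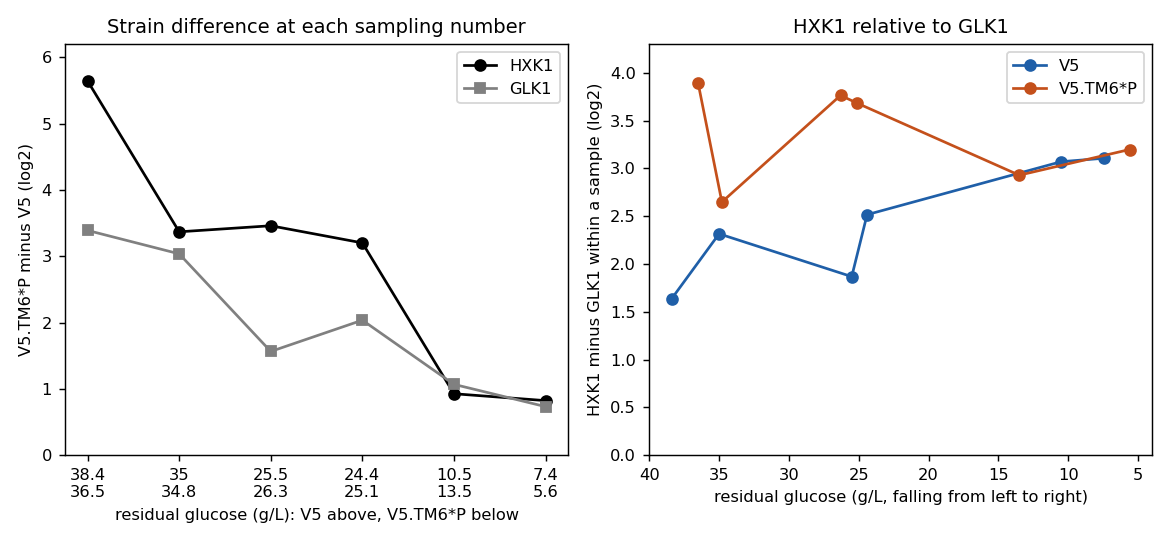
Left, V5.TM6*P minus V5 (log2) at each sample number for HXK1 and GLK1, with the residual glucose of V5 (upper) and V5.TM6*P (lower) in g/L under each point. Right, HXK1 minus GLK1 within a sample (log2) against residual glucose in g/L, by strain. The HXK1 gap fell from 5.64 to 0.82 and the GLK1 gap from 3.39 to 0.73.

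Repeat arrays and spots gave the technical error of these values, which does not cover the spread between RNA samples. The 2 arrays of an RNA sample differed by 0.03 to 1.26 for HXK1, which gives an SD of one array of 0.22 in V5 and 0.46 in V5.TM6*P. The largest gap was that of V5.TM6*P at 34.8 g/L, with 5.49 on one array and 6.75 on the other. For GLK1 the arrays differed by 0.02 to 1.07, with an SD of 0.37 in V5 and 0.22 in V5.TM6*P, and the largest gap was at 10.5 g/L in V5. The 2 GLK1 spots of an array had an SD of one spot of 0.40 in V5 and 0.15 in V5.TM6*P. Their largest gap, 1.38, was on an array of V5 at 38.4 g/L, where one spot read 0.61 and the other -0.77.

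**Figure D4:**
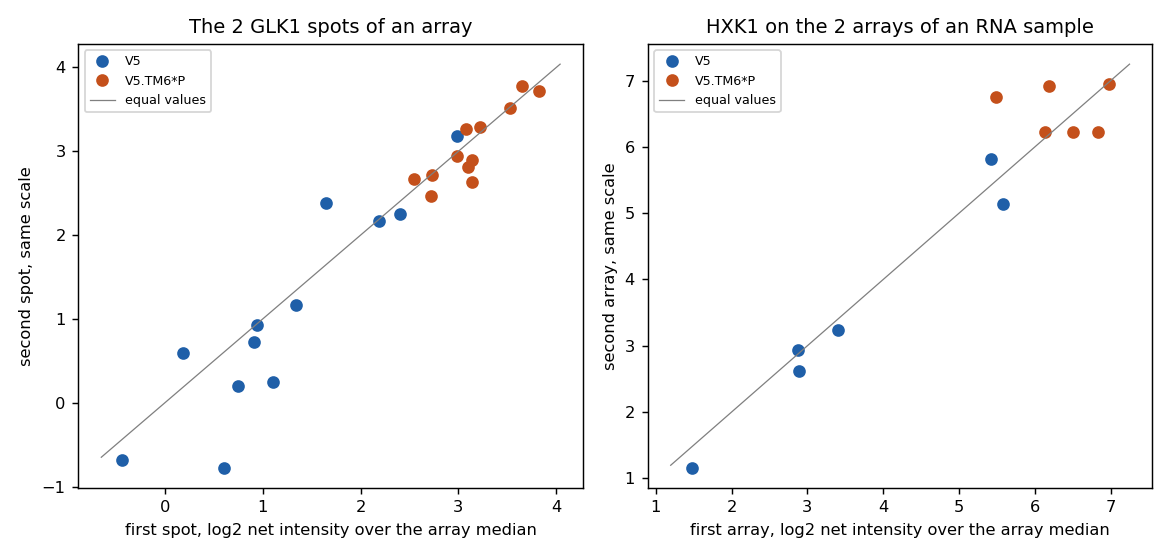
Left, the second GLK1 spot of each of the 24 arrays against the first, and right, HXK1 on the second array of each of the 12 RNA samples against the first, all as log2 net intensity over the array median and coloured by strain. The line marks equal values. V5 spots of GLK1 scatter more (SD 0.40) than those of V5.TM6*P (SD 0.15).

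EMI2, the paralog of GLK1, had levels of -0.61, 0.35, 0.73, 0.67, 1.42 and 1.76 in V5 and of 3.09, 3.08, 2.67, 2.85, 2.59 and 2.56 in V5.TM6*P. It did not overlap between the strains and was 4.25-fold higher in V5.TM6*P (log2 difference 2.09, SE 0.33, limma, adjusted p = 0.00171). In V5.TM6*P its slope was 0.18 per 10 g/L (limma, adjusted p = 0.879), and its difference of slopes between the strains was 0.81 (SE 0.13, adjusted p = 0.213).

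HXK1 and GLK1 were among the probes most like each other. Over the 12 RNA samples their levels correlated at r = 0.97, and GLK1 ranked first among all probes by likeness to HXK1, while HXK1 ranked 3 by likeness to GLK1. Within V5 the correlation was 0.99 over 6 samples, and within V5.TM6*P it was -0.06 over 6 samples, so that over 12 it rests on the strain difference and on the change in V5. All these values come from the same arrays. After GLK1, the probes most like HXK1 were CRC1 (mitochondrial carnitine carrier, r = 0.97), EMI2 (0.97), ETR1 (mitochondrial enoyl reductase, 0.96), CYT2 (cytochrome c1 haem lyase, 0.96), a probe with no name here, YMR31 and the mitochondrial ribosomal protein gene MRPL22 (both 0.96). Those most like GLK1 were YMR31 (r = 0.98), ETR1 (0.97), HXK1, EMI2 (0.95), ATP5 (a subunit of ATP synthase, 0.95), HEM2 (haem synthesis, 0.95), QCR8 (a subunit of the cytochrome bc1 complex, 0.94) and the same unnamed probe. CRC1 and YMR31 were identified with more than 1 candidate probe by value. YMR31, ETR1, EMI2 and the unnamed probe were in both lists. None of them moved as far as HXK1: the V5 slopes of the others near HXK1 were -0.85 to -0.26 per 10 g/L.

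Other genes of the pathway were read from the named probes. Names could be given only to genes on the lists of the study, and 58.4% of the 1042 named probes passed the strain test against 12.2% of all probes. The counts that follow describe these probes and are no measure of the pathways. In glycolysis 8 of 14 listed genes had a named probe, of which none was higher in V5.TM6*P, 6 were lower and 2 did not pass. CDC19, the main pyruvate kinase, was at 0.425 of its V5 level (limma, adjusted p = 0.0106). ENO2 and ENO1, the enolases, were at 0.536 (0.0139) and 0.531 (0.0492), and TPI1, triose phosphate isomerase, at 0.6002 (0.0288). TDH2 and TDH3, glyceraldehyde 3-phosphate dehydrogenases, were at 0.683 and 0.678. PFK1 had a log2 difference of -0.51 (adjusted p = 0.0949) and PYK2, whose probe was identified only by print order, 0.80 (0.0657). The median log2 difference of the 8 was -0.65, against -0.05 over all probes. Their V5 slopes were above 0, the opposite sign to HXK1 and GLK1, for all but PYK2, with a median of 0.24 per 10 g/L against 0.01 over all probes, and none passed (adjusted p of CDC19 0.262).

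PDC1 and PDC5, the pyruvate decarboxylases, were the only genes of ethanol formation with a named probe, 2 of 5 listed, and both were lower in V5.TM6*P at 0.225 and 0.124 of their V5 levels (limma, adjusted p = 0.000177 and 3.68e-05). Their V5 slopes were 0.03 and -0.07 per 10 g/L. Both genes of gluconeogenesis, FBP1 (fructose 1,6-bisphosphatase) and PCK1 (phosphoenolpyruvate carboxykinase), were higher in V5.TM6*P (limma, adjusted p = 0.00443 and 0.000636). Their V5 spots lay near background, with a median of 1.19 times local background for FBP1 and 1.4035 for PCK1 against 2.02 and 3.05 in V5.TM6*P, so no fold is given and their V5 slopes are not read.

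Among genes of storage carbohydrate metabolism, the trehalases included, and of the pentose phosphate pathway, 8 of 21 listed had a named probe. One was higher in V5.TM6*P, GLC3 (glycogen branching enzyme), 2.37-fold (limma, adjusted p = 0.00661), none was lower and 7 did not pass. The median log2 difference was 0.59. Of their V5 slopes 7 of 8 were below 0, against 3064 of 6330 over all probes, and none passed. PGM2, UGP1, NTH2 and GSY1 were named only from the study's list computed without its lowest glucose points. That list holds genes missing from the study's other lists, so being named is tied to a change at low glucose. The count of slopes is therefore no independent support. The slope was -0.59 per 10 g/L for GSY2 (a glycogen synthase), -0.50 for PGM2 (phosphoglucomutase) and -0.47 for NTH2, a trehalase, which breaks trehalose down to glucose. The V5 spots of PGM2 and GSY2 were low, at medians of 1.63 and 1.54 times background. UGP1, which makes UDP-glucose, had a slope of 0.37.

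Of the genes of glucose sensing and repression 4 of 13 listed had a named probe. SNF3, a glucose sensor, was 1.59-fold higher in V5.TM6*P (limma, adjusted p = 0.0285) and REG2, a regulatory subunit for the phosphatase Glc7, 1.84-fold higher (0.0398). REG2 correlated with HXK1 at r = 0.92 over the 12 samples, with a V5 slope of -0.40 (limma, adjusted p = 0.199). The V5 spots of REG2 were low, at a median of 1.54 times background. The probes of the repressors MIG2 and MIG3 were identified with more than 1 candidate by value and did not pass the strain test (adjusted p = 0.345 and 0.114), with V5 spots at medians of 1.20 and 1.39 times background.

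The study names 14 other genes as Mig1-dependent from its induced set. All 14 had a named probe and were higher in V5.TM6*P, which is not independent evidence, since they were chosen on these samples. Their V5 slopes, which did not enter that choice, were below 0 for 10 of 14 against 3064 of 6330 over all probes, with a median of -0.35 per 10 g/L against 0.01, and none passed. An unadjusted p under 0.05 was found for 9 of 14, 7 with a slope below 0 and 2 above, against 770 of 6330. For 6 of them, HXT13, HXT15, ATO2, JEN1, HPA3 and FBP1, the median V5 spot was under 1.5 times background, a limit chosen after the values were seen, and their slopes of -0.90 to 0.82 are not ranked. Only 2 of these 6 had a slope below 0. All of the other 8 did, so the limit set aside every gene with a slope above 0. Those 8 had slopes of -0.69 to -0.11, among them DSF1 (-0.69), EMI2 (-0.63) and ODC1 (-0.41, mitochondrial oxodicarboxylate carrier). SUC2, invertase, was 8.28-fold higher in V5.TM6*P (limma, adjusted p = 4.69e-05) with a V5 slope of -0.11 (adjusted p = 0.869). The V5 spots of SUC2 and DSF1 were low, at medians of 1.59 and 1.53 times background, just over the limit, which restricts what their V5 values can show. HXK1, with a strain difference of 2.90 on the log2 scale that lay near the median of 2.77 of these genes, had a V5 slope of -1.27.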

How the data were processed

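Per the file headers and the methods, the authors scanned phosphor screens and measured spots and local background as median pixel intensity. The scanner values are linear intensity values with background not yet subtracted. The authors' deposited table gives intensity after background subtraction, in a scaling not given in the sources used here, so it served as an alternative. Background was subtracted from the scanner values, net values under 0.1 were set to 0.1 (1.49% of values), log2 was taken, repeat spots were averaged, values were set relative to the array median, and the 2 arrays per RNA sample were then averaged. No value column lacked a sample.

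Strain, slope (1 line per strain) and stage contrasts were fitted with limma 3.58.1 (R 4.3.3) with Benjamini-Hochberg adjustment over 6330 probes and a threshold of 0.05. Single values were tested with exact permutation tests in Python 3.11.15. The fits were tested on simulated data of 6330 probes with 200 changed probes, drawn 5 times. Of simulated V5 slopes, 95.2% of those of -1.5, 86% of those of -1 and 43.6% of those of -0.5 per 10 g/L passed, and of strain differences 70% of those of 3, 102 of 335 of those of 2 and 10 of 335 of those of 1 on the log2 scale. The simulated noise was normal and independent between probes. The same 200 probes carried both changes, so their V5 slopes added to the spread in the strain test. These rates are therefore not the power of the tests in the real data.

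Names were assigned by matching the strain factor and base value computed from the authors' table, and the print order, to the study's gene lists, which named 1042 probes. For HXK1, GLK1 and EMI2 1 probe matched. Named are HXK1, GLK1, their homologs, listed pathway genes with a named probe and the 8 probes most correlated with each. The members and lists were chosen with earlier results of these data known. Alternatives changed the floor, normalization, background, source, variance model, arrays and samples, and a further one, leaving out 1 array of V5.TM6*P at 34.8 g/L, was chosen after seeing the data.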

Additional observations from a re-analysis of the deposited data

How the results depend on the processing

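The strain difference of HXK1 and of GLK1 passed the threshold under every alternative run, at 2.46 to 3.92 for HXK1 and 1.05 to 2.51 for GLK1 on the log2 scale. The ends were without V5 at 38.4 g/L and without the 2 lowest points for HXK1, and normexp and quantile and without the 2 lowest points for GLK1. With single samples left out the range was 2.46 to 3.32 and 1.68 to 2.26. Deviations of samples with the same number correlated at only 0.02 to 0.05. Samples of the same number are from different strains, so a low correlation cannot decide whether the numbers pair them. With the number as a replicate block, adjusted p was 0.0354 for HXK1 and 0.0267 for GLK1, and 506 probes passed in place of 772. With the low stage left out 471 passed.

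The GLK1 slope in V5, just short of the threshold, passed with no floor (-0.85, limma, adjusted p = 0.0449), a floor of 1 (-0.85, 0.0458), mean pixel intensity (-0.90, 0.0298), the authors' table (-0.76, 0.0435), a variance trend (-0.85, 0.000978) and all 24 arrays with the RNA sample as a random block (-0.85, 7.71e-05). In the 21 other alternatives it missed, with adjusted p of 0.0568 to 0.920, such as -0.35 with normexp and quantile (0.0667) and -0.78 without V5 at 38.4 g/L (0.248). The HXK1 slope in V5 lost its call without the 2 lowest points (-1.06), and with single samples left out it was -1.41 to -1.15. The number of probes with a V5 slope called was 1, against 7 with no floor, 6 with a floor of 1, 19 with mean pixel intensity and 8 with the authors' table. It was 151 with normexp and quantile, 76 with a variance trend, 140 with 24 arrays and 2 without the arrays of the different image-name code. With log2 of glucose it was 4, and without the 2 lowest points 0. For V5.TM6*P it was 0, against 2 with normexp and quantile, 1 with a variance trend or log2 of glucose and 3 with 24 arrays. For the difference of slopes it was 0, against 2 with the authors' table or a variance trend, 1 with normexp and quantile and 5 with 24 arrays. That difference passed for HXK1 with the authors' table (1.53), a variance trend and 24 arrays (both 1.36), and for GLK1 with 24 arrays (0.83), while with normexp and quantile it was 0.32 for GLK1.

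At the middle stage the GLK1 strain difference passed with no floor (1.81), a floor of 1 (1.80), mean pixel intensity (1.94), the authors' table (1.98), the first GLK1 spot (1.67), normexp and quantile (0.89), a variance trend and 24 arrays (both 1.80), and that of HXK1 was 3.12 to 3.54 with single samples left out. V5 low minus high stage passed with the authors' table (3.56 for HXK1, 2.10 for GLK1), normexp and quantile (2.69 and 0.99), a variance trend and 24 arrays (3.46 and 2.34) and, for GLK1, its first spot (2.03). With single samples left out it was 2.74 to 4.17 and 1.97 to 2.72.

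In V5.TM6*P the sign of values near 0 turned. The GLK1 slope became 0.49 without the 2 lowest points and GLK1 low minus high stage -0.0437 with the authors' table. With single samples left out the slopes were -0.0247 to 0.19 for HXK1 and -0.11 to 0.0858 for GLK1, and low minus high stage -0.59 to 0.25 and -0.28 to 0.35. In exact permutation tests without the 2 lowest points, the V5 slope of GLK1 was -0.78 (p = 0.0833), that of HXK1 minus GLK1 -0.28 (p = 0.375), and that of HXK1 minus GLK1 in V5.TM6*P turned to -0.34. The V5 slope of HXK1 minus GLK1 was -0.31 with the second GLK1 spot and -0.51 to -0.37 with single samples left out. In V5.TM6*P it was -0.0112 to 0.30 with single samples left out and 0.22 with the authors' table (exact permutation test, p = 0.0139). The causes were not tested, except that leaving out samples or arrays leaves fewer values. The alternative without 1 array at 34.8 g/L was chosen after seeing the data and changed no call of HXK1 or GLK1. Low signal over background limits the GLK1 values of V5 at high glucose most.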

Other observations

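The scanner file and the authors' table differ for 1 array of V5.TM6*P at 34.8 g/L. In the scanner file the net HXK1 intensity was 741 on this array and 1390 on the other array of the same RNA. In the authors' table the values were 229 and 151, and 229 was the highest HXK1 value of all 24 arrays. The GLK1 spots of the array read 234 and 217 in the scanner file against 109 and 124 on the other array, and 18.0 and 17.3 against 11.3 and 11.9 in the authors' table. GLK1 was thus higher on this array in both sources, and HXK1 only in the table. Without the array the HXK1 level of this sample is the 6.75 of the other one, and the HXK1 strain difference was 3.01 on the log2 scale (limma, adjusted p = 0.00810).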
